A study of Arabidopsis thaliana and Brassica rapa with 28 samples.

Results

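The shade response of Brassica rapa whole hypocotyls was measured by RNA sequencing in 6 of the series' 28 samples. The hypocotyl is the seedling stem below the cotyledons. Plants of the FPsc wild type were grown on agar in continuous white light (W). At 4 d of age they were given 9 h of shade, that is light poor in red relative to far-red, or 9 h of W. Each light was represented by 3 libraries of whole hypocotyl tissue, with no mutation or transgene in either. Peels of the hypocotyl epidermis from plants of the same strain, age and treatment, again 3 libraries in shade and 3 in W, were used for comparison. The series also holds 16 libraries of Arabidopsis seedlings.

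Plants sense crowding through phytochrome B, a photoreceptor that red light activates and far-red light returns to its inactive form. In shade it releases PIF transcription factors, which in seedlings raise auxin synthesis in the cotyledons. The auxin moves to the hypocotyl, where it acts with brassinosteroids to lengthen cells, and genes for growth and cell wall loosening are among its usual targets. The epidermis is commonly described as the layer that limits stem growth.

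The authors' tables gave 1 FPKM (fragments counted per gene, divided by its length and by the size of the library) per gene and light, estimated over the 3 libraries of a group, with their own test. Values of single libraries were not in these tables, so no spread between libraries and no depth per library can be given, and the depth behind each FPKM is unknown. A gene is called higher or lower where the authors' deposited q was under 0.05. Log2 folds are shade over W, given with a standard error (±) taken from the authors' statistic. Whether the 3 libraries of a light are separate cultures is not in the labels, and the q values then reflect only how these libraries vary. The tables list genes by Brara identifiers, and loci assembled from the reads by other numbers, and neither the tables nor the reference at hand pairs them with gene names. Genes are therefore described by level, size of response and position, no pathway or marker list could be counted, and the labelled tissue could not be checked against marker genes.

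A large share of the tested transcriptome differed between the lights, nearly evenly in both directions. Of 30592 genes and loci tested, 11511 (37.6%) were called, 5381 (17.6%) higher and 6130 (20.0%) lower in shade. The median log2 fold over all tested genes was -0.03, a value that depends on how the libraries were scaled. In the epidermal peels 10624 of 30498 (34.8%) were called. In whole Arabidopsis control seedlings after 4 h the authors called 580 of 20325 (2.85%), but species, tissue, age, time and number of libraries all differ from those here, so the counts are given side by side only.

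Among called genes, falls were larger than rises, but not at every level. Among genes called higher, the median log2 fold was 0.83, a ratio of 1.77, with quartiles of 0.60 and 1.31. Their median FPKM was 34.6 in shade against 18.3 in W. Among genes called lower, the median log2 fold was -1.08, a ratio of 2.11, with quartiles of -1.72 and -0.73, and the median FPKM was 7.71 in shade against 17.5 in W. A size of at least 1 on the log2 scale was reached by 38.0% of the genes called higher and by 54.3% of those called lower. At a size of at least 3 there were 169 genes called higher and 375 called lower, besides 57 and 66 called genes that were listed at 0 in 1 of the lights. By class of mean FPKM over both lights, median log2 folds of genes called higher and lower were 1.68 and -1.68 at 1 to 3 FPKM. They were 0.76 and -0.91 at 10 to 30 FPKM, and 0.76 and -1.05 at 100 to 300 FPKM. The median standard errors were 0.19 for the genes called higher and 0.22 for those called lower. The 19081 genes not called had a median size of 0.27, and 1665 of them still had a size of at least 1, so many folds of that size could not be told from no change with these libraries.

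**Figure D1:**
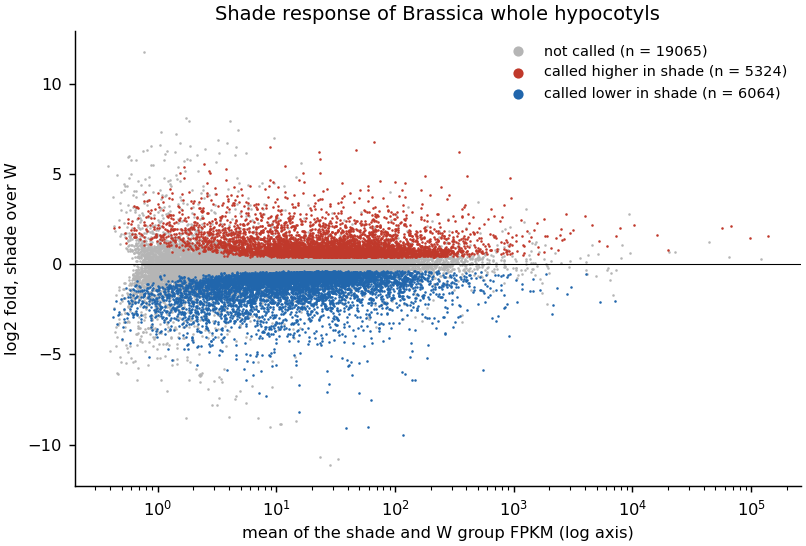
Log2 fold of shade over W in whole hypocotyls against the mean FPKM over both lights (log axis), 1 point per tested gene or locus with an FPKM in both lights, coloured by the authors' call. Called genes lie on both sides of 0 at all levels, and the 57 called genes listed at 0 in W and the 66 listed at 0 in shade are not drawn.

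Where both lights had an FPKM of at least 1, the 2 largest called rises and the 2 largest called falls reached about 80-fold or more. Brara.I00541 (A09:3023978-3026038) had an FPKM of 132.7 in shade against 1.22 in W, a log2 fold of 6.76 ± 0.42, or 109-fold (q = 0.000271, the smallest in the table). That q goes with the smallest p, which 5262 of the 30592 tested genes and loci have, so it does not rank them. Brara.H00699 (A08:9079912-9081183) had 93.2 in shade against 1.17 in W, a log2 fold of 6.32 ± 0.39 with the same q. Both were close to silent in W and among the well-expressed genes in shade. Brara.D00699 (A04:5744124-5745868) had 3.199 in shade against 275 in W, a log2 fold of -6.43 ± 0.30, and Brara.K01071 (Scaffold43463:2163-4653) had 3.44 in shade against 290.3 in W, a log2 fold of -6.40 ± 0.68, both with the same q. Coordinates count from 1 on the authors' Brassica assembly, whose build the sources used here do not give. Each of the 4 genes is alone in its locus.

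All 4 were called the same way in the peels, which shared no library with the whole hypocotyls. Brara.I00541 had 178.7 FPKM in shade peels against 1.63 in W peels, a log2 fold of 6.78 ± 0.43. Brara.H00699 had 56.3 FPKM in shade peels against 1.74 in W peels, a log2 fold of 5.02 ± 0.38. Brara.D00699 had 1.06 FPKM in shade peels against 24.8 in W peels, a log2 fold of -4.55 ± 0.42, and Brara.K01071 had 2.89 in shade peels against 66.7 in W peels, a log2 fold of -4.53 ± 0.38. For Brara.D00699 the whole hypocotyl response was below that of peels by -1.88 ± 0.52 on the log2 scale. The difference passed a two-sided z test with standard errors from the authors' statistic (Benjamini-Hochberg adjusted p = 0.00623). With the larger of 2 estimates of the standard error it did not pass. That estimate is too large at the smallest p, which this gene has in both tissues, so it cannot decide whether the responses differ. For the other three the difference did not pass (adjusted p from 0.168 to 1.00).

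Where both lights had an FPKM of at least 1, the largest responses of whole hypocotyls were mostly also present in the peels. The ranking took called genes under that limit, as for the 4 named genes. Called genes under 1 FPKM in a light were left out, some of them with larger folds than ranked genes. Of the 100 largest rises (median log2 fold 3.41, median FPKM 61.4 in shade against 5.07 in W), 98 were tested in the peels and 93 were called higher there, against 16.2% of all genes tested in peels. Of the 100 largest falls (median log2 fold -3.92, median FPKM 2.33 in shade against 46.1 in W), 93 were tested in the peels and 84 were called lower there, against 18.6% of all. None of the 200 ranked genes was called the opposite way in the peels.

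Called genes that crossed 1 FPKM between the lights were more often losses, and most were low in both lights. Of the 6130 genes called lower, 683 had an FPKM of at least 1 in W and under 1 in shade, and 58 of them had at least 10 in W. Of the 5381 genes called higher, 308 had an FPKM of at least 1 in shade and under 1 in W, and 20 of them had at least 10 in shade. Calls of low genes were mostly lower in any case: at a mean of 1 to 3 FPKM over both lights, 717 were lower and 316 higher. The 66 called genes listed at 0 in shade had a median W FPKM of 3.19, and the 57 listed at 0 in W had a median shade FPKM of 3.01. An exact 0 in these tables can be a failed estimate. The locus with the highest level among those listed at 0 in shade, an assembled stretch of 51 bp, was at 0 in shade against 19016 FPKM in W (q = 0.0291), but was at 12612 FPKM in shade peels against 55828 in W peels (q = 0.298, not called).

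Genes called higher came to hold a far larger part of the annotated transcript pool in shade. The 5035 annotated genes called higher summed to 48.0% of the FPKM of annotated genes in shade, against 24.7% in W. The 5754 annotated genes called lower summed to 13.3% in shade, against 33.6% in W. Which set held more thus depended on the light. Of the called genes with at least 100 FPKM in both lights, 549 were higher and 217 lower. Classed by the level in W peels, 429 were higher and 401 lower at 100 to 300 FPKM. At 300 FPKM and above by that level, 111 were higher and 144 lower. The sums of FPKM follow from the calls and are given as a description.

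**Figure D2:**
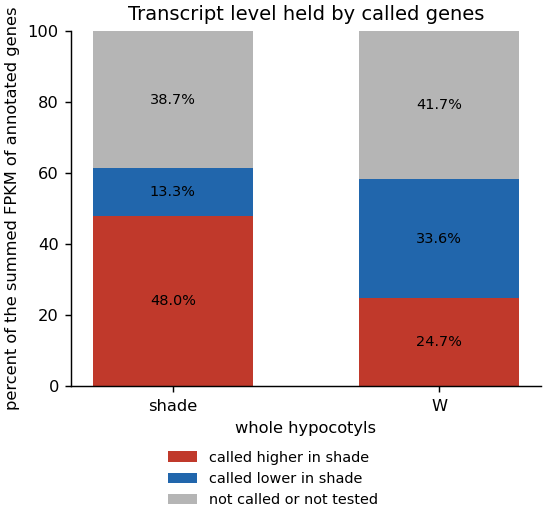
Stacked bars give the percent of the summed FPKM of annotated genes held by genes called higher, called lower, and not called or not tested, in shade (left) and in W (right) whole hypocotyls. Genes called higher hold 48.0% in shade against 24.7% in W, and genes called lower 13.3% in shade against 33.6% in W.

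Very short assembled loci held much of the summed level, and more of it in shade: those under 200 bp held 50.8% in shade against 38.5% in W, and annotated genes 43.6% in shade against 54.6% in W. The 10 loci most abundant in shade, all assembled and spanning 51 to 364 bp, held 39.0% of the summed FPKM in shade against 24.3% in W. Summed FPKM was 2297140 in shade against 1683580 in W over all loci, a log2 ratio of 0.45, and 1002630 in shade against 918802 in W over annotated genes, a log2 ratio of 0.13. FPKM divides by length, so a stretch about as long as a read can reach a very high value from few reads. Shifting all log2 folds by the ratio over all loci, with the authors' q values held, left 5100 called genes above 0 and 6411 below it. Whether these loci affect the authors' calls was not tested.

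Compact clusters of neighbouring genes rose together. On A02, A03 and A10 there were 3 windows of under 20000 bp in which every feature of the table was called higher, 31 genes in all, beside 19.0% of annotated genes tested. The windows were found by looking for runs of neighbouring called genes, so the calls in whole hypocotyls are a description. The 31 log2 folds ran from 1.05 to 3.18 with a median of 2.05, a ratio of 4.15. Every q was 0.000271, the smallest value, which 5262 tested genes and loci have.

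The A02 window (A02:3477301-3490201, 12901 bp) held 11 genes with 15.7 to 156 FPKM in shade (median 99.2) against 2.44 to 38.2 in W (median 19.4). Their log2 folds, in order along the chromosome, were 1.95, 2.14, 2.68, 3.18, 2.38, 2.21, 2.04, 1.94, 2.87, 2.66 and 1.77. The steepest rise was that of the fourth gene, with 123 FPKM in shade against 13.6 in W. The A03 window (A03:3669888-3680781, 10894 bp) held 9 genes with 16.5 to 467 FPKM in shade (median 102.8) against 3.97 to 135 in W (median 14.6). Its folds in order were 1.79, 2.01, 2.44, 1.80, 2.92, 2.75, 2.05, 1.15 and 1.68. The A10 window (A10:14621132-14636250, 15119 bp) held 11 genes with 20.1 to 470 FPKM in shade (median 97.0) against 9.10 to 132 in W (median 43.8). Its folds in order were 1.99, 1.05, 2.25, 1.84, 2.70, 1.56, 2.46, 2.39, 2.25, 1.69 and 1.12. The gene with the lowest fold in the A03 window and the one with the lowest fold in the A10 window were also the longest of their windows, spanning 1958 and 1635 bp, whereas the longest gene of the A02 window, spanning 1218 bp, had a log2 fold of 2.68, among the higher ones there.

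The same 31 genes were all called higher in the peels, where 16.2% of tested genes were, with a median log2 fold of 2.25. In the A02 window the peel levels had a median of 147.6 FPKM in shade against 31.7 in W, in the A03 window 143.6 in shade against 20.5 in W, and in the A10 window 146.9 in shade against 66.8 in W. The responses of the tissues differed in 1 of the 31 genes (z test on the authors' statistics, smallest adjusted p = 0.0118). It was the fourth of the A02 window, with a log2 fold of 3.18 in whole hypocotyls and 2.56 in peels. With the larger standard error 0 differed. All 31 have the smallest p in both tissues, where that standard error is too large, so the 0 cannot decide whether responses differ. The genes are short: 12 of them span under 300 bp, at only 4 distinct lengths (279 bp in 5 genes, 294 bp in 4, 291 bp in 2 and 297 bp in 1), each a multiple of 3. Near-identical copies can share reads, and the files do not say how alike these genes are. In the authors' table corrected for multiply mapped reads, 30 of the 31 genes were listed, all 30 were called higher, and no log2 fold moved by more than 0.06.

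**Figure D3:**
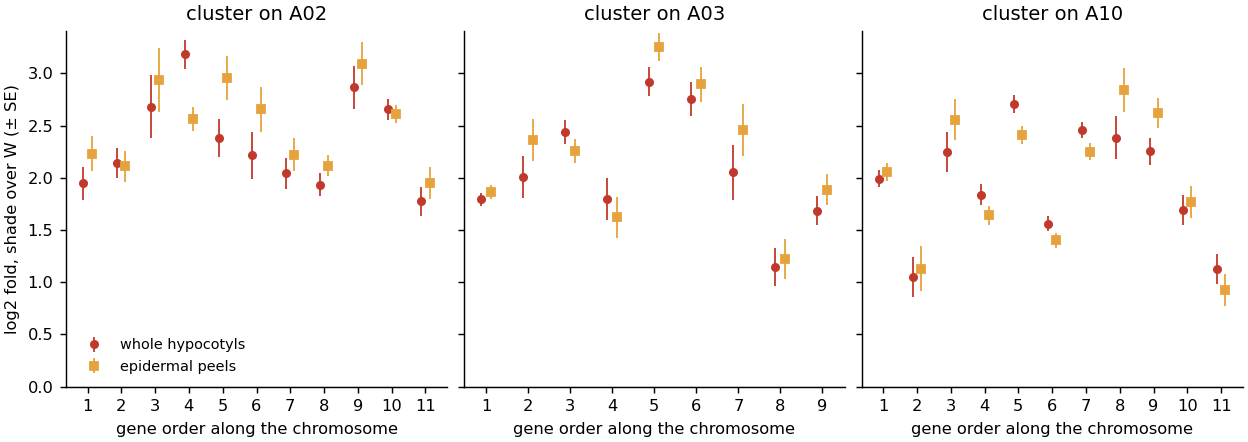
Log2 fold of shade over W (± standard error) for the genes of the 3 clusters in their order along the chromosome, in whole hypocotyls (circles) and in epidermal peels (squares). All 31 genes lie at or above 0.93 in both tissues, and the lowest gene of the A02 and of the A03 cluster is the same in both.

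Over the whole genome, the 3 windows included, neighbours resembled each other only weakly. Among 22831 pairs of adjacent annotated genes, each alone in its locus, the next gene was called higher in 22.9% of cases after a gene called higher and in 17.7% after a gene called lower, against 19.9% over all pairs. The next gene was called lower in 25.4% of cases after a gene called lower and in 19.8% after a gene called higher, against 22.3% over all pairs. Runs of at least 4 neighbouring tested genes called the same way numbered 46 higher, the 3 windows among them, and 70 lower. Besides the 3 windows, 2 runs of at least 6 genes were higher and 7 were lower. The longest run of genes called lower held 7 genes over 67108 bp on A05 (A05:2044452-2111559), with a median log2 fold of -0.84 and log2 folds from -2.73 to -0.50, and all 7 were called lower in the peels. A run of 8 genes called higher spread over 74092 bp on A09 (A09:1774744-1848835), with log2 folds from 0.59 to 2.57, and 7 of them were called higher in the peels.

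The called genes were spread over the whole genome. The share of annotated genes called lay between 38.9% and 42.3% on the chromosomes and was 40.3% on unplaced scaffolds. Annotated genes were called more often than assembled loci, 40.6% of 26569 against 17.9% of 4023. Gene span had no relation to the fold, with a Spearman rho of 0.0057 over 23720 annotated genes alone in their locus, given as a description across genes that share the same libraries.

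Well-expressed genes were called more often, and at low levels calls were mostly lower. At 30 to 300 FPKM they were mostly higher by the level in shade peels or the mean of both lights. By the level in W peels they were split nearly evenly, with 50.4% higher at 30 to 100 FPKM and 51.7% at 100 to 300 FPKM. Genes were classed by their FPKM in the peels, which share no library with the whole hypocotyls. By the geometric mean of both peel levels, 7.98% of genes under 1 FPKM were called higher and 24.3% lower, so that 24.7% of the calls were higher, whereas at 100 to 300 FPKM 40.7% were called higher and 17.9% lower, so that 69.5% of the calls were higher. This mean puts a gene listed at 0 in 1 peel light under 1 FPKM. Among genes called in peels, 274 were listed at 0 in shade and 37 at 0 in W, so that class leans toward genes that fall. By the level in shade peels, 5.57% of genes under 1 FPKM were called higher in whole hypocotyls and 30.5% lower, whereas at 100 to 300 FPKM 49.8% were called higher and 10.5% lower. By the level in W peels, genes under 1 FPKM were called higher in 12.4% and lower in 19.0% of cases, and genes at 100 to 300 FPKM in 30.1% and 28.1%. A class set by 1 light carries the peel response in that light, so these classes are not independent of the fold. The more common direction was the same by either light in every class except 300 FPKM and above, where 47.3% were higher and 8.75% lower by the shade peel level, and 21.5% were higher and 27.9% lower by the W peel level. How far the split departs from even thus depended on the light that set the class, most at high levels. The median standard error of the log2 fold was 0.44 under 1 FPKM and 0.14 at 300 FPKM and above, by the mean level in peels.

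**Figure D4:**
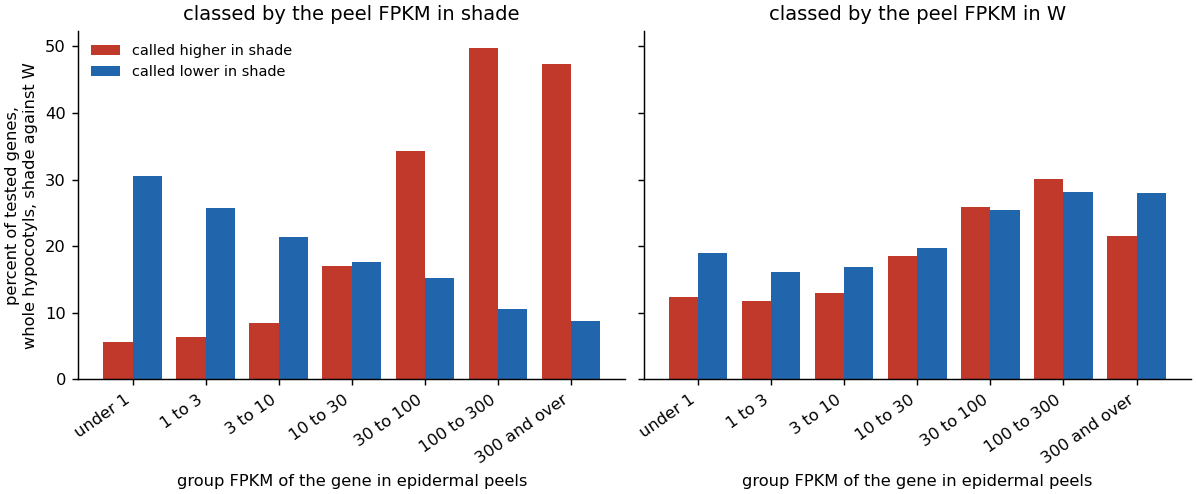
Percent of genes called higher and called lower in shade whole hypocotyls, by class of FPKM in the peels, with classes set by the shade peels (left) and by the W peels (right). At 100 to 300 FPKM 49.8% were called higher by the shade peel level and 30.1% by the W peel level.

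The whole hypocotyl contains the epidermis, so the peels show which parts of the response are also found in its outer layer. In bulk tissue, fewer cells of a type and less RNA per cell cannot be told apart. Over 28709 genes tested in both tissues, 10968 were called in whole hypocotyls and 10171 in peels. The same direction was called in both for 7616 genes, which is 69.4% of the whole hypocotyl calls and 74.9% of the peel calls. Of these 3630 were higher and 3986 lower in both. The responses were of like size, with median log2 folds of 0.89 in whole hypocotyls and 0.96 in peels for genes higher in both, and of -1.16 in whole hypocotyls and -1.25 in peels for genes lower in both. Over the 28535 genes with both folds, Spearman's rho was 0.779 and Pearson's r 0.738, as a description across genes.

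Genes called in whole hypocotyls but not in peels are described by both folds, of which the peel fold is smaller by the way they were chosen. The 1563 genes higher in whole hypocotyls and not called in peels had median log2 folds of 0.64 in whole hypocotyls and 0.34 in peels, with the same sign in 87.0%. The 1670 genes lower in whole hypocotyls and not called in peels had medians of -0.81 in whole hypocotyls and -0.38 in peels, with the same sign in 87.2%. A missing call in peels therefore does not show a response of whole hypocotyls alone: the difference itself passed the test in 196 of 1537 of the first kind that could be tested and in 165 of 1645 of the second, and with the larger standard error in 34 and 30.

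**Figure D5:**
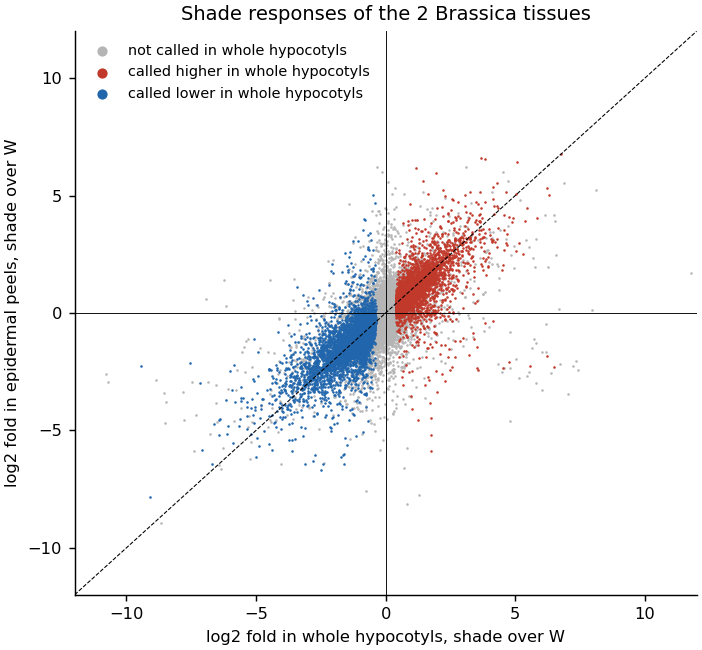
Log2 fold of shade over W in whole hypocotyls (horizontal) and in epidermal peels (vertical), 1 point per gene tested in both tissues, coloured by the call in whole hypocotyls. Most points lie along the diagonal (Spearman's rho 0.779), and genes called in opposite directions lie in the upper left and lower right quadrants.

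The test of the difference, whole hypocotyls minus peels, passed for 1917 of 28485 genes (6.73%) at a Benjamini-Hochberg adjusted p under 0.05. The whole hypocotyl fold was above the peel fold in 985 and below it in 932. With the standard error taken from the authors' p the count was 253, and with the larger of both standard errors 226, so the count depends on how the standard error is taken. Taken from p, it is too large at the smallest p. With the larger one, 0 of 3618 genes higher in both tissues and 0 of 3966 lower in both passed. Among the 226, the whole hypocotyl fold was above in 119 and below in 107, with a median size of the difference of 2.37 on the log2 scale.

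A small set of genes was called in opposite directions. There were 67 genes higher in whole hypocotyls and lower in peels, with median log2 folds of 1.25 in whole hypocotyls and -1.55 in peels. Their median FPKM was 7.65 in shade against 3.05 in W whole hypocotyls, and 2.43 in shade against 8.21 in W peels. There were 52 genes lower in whole hypocotyls and higher in peels, with median log2 folds of -0.76 in whole hypocotyls and 1.64 in peels. Their median FPKM was 33.1 in shade against 56.2 in W whole hypocotyls, and 5.08 in shade against 1.65 in W peels. The second set was thus more abundant in whole hypocotyls than in peels in both lights, whereas the first set was more abundant in whole hypocotyls in shade and in peels in W. Of the 114 genes with a fold in both tissues that could be tested, all 114 passed the difference test and 101 with the larger standard error, which their choice by opposite calls makes likely.

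The authors' correction for multiply mapped reads left the response nearly as it was. With it, 11563 of 30530 genes (37.9%) were called, 5408 (17.7%) higher and 6155 (20.2%) lower. Of 10696 annotated genes called without the correction and tested in both tables, 10607 (99.2%) were called the same way with it and 0 the opposite way, while 89 were called without it alone and 129 with it alone. With the correction 39934 of the 40481 annotated genes were listed, and those left out could not be compared. Over 26186 annotated genes with both folds, the median size of the change in log2 fold was 0.0012. Of these, 45 genes moved by more than 0.5, with a largest change of 9.23. The sign changed in 100 genes, of which 1 was called without the correction. Both tables come from the same 6 libraries. For the 4 genes named above the corrected log2 folds were 6.75, 6.32, -6.43 and -6.40 in the order given.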

How the data were processed

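Stranded libraries of polyadenylated RNA were read as single ends of 50 bp, per the labels. The submitters' processing notes name CASAVA 1.8.2, TopHat2 2.0.9, Bowtie2 2.1.0, Cufflinks and Cuffdiff, and list TAIR10 for all samples. The sources used here do not give the Brassica build.

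FPKM values were computed by the authors with Cuffdiff, 1 per gene and group. The score is the test statistic the authors deposited for each gene. Each p-value and q-value is as the authors deposited it, with a smallest p of 5e-05. The deposited fold runs from shade to W, and 1318 of its cells held a spreadsheet error, so log2 folds of shade over W were recomputed from the FPKMs without a pseudocount. Only genes the authors marked as tested were counted.

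The standard error was the size of the fold over the statistic, times 0.670 in whole hypocotyls and 0.758 in peels, the median of the statistic over the normal deviate that p implies. In 7.45% of genes in whole hypocotyls and 8.31% in peels the statistic was over 2 times what this gives, which makes their standard errors too small. An alternative took it from p, which is too large at the smallest p. The two-sided z test of the difference used genes that reached 1 FPKM in some group, and its script was tested on simulated data.

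The rule for naming genes took the 2 largest called rises and falls where shade and W both reached 1 FPKM. The 18 planned gene lists were not used, because the identifiers carry no names. The groups, lists and tests were chosen with earlier results of these data known, and the neighbour runs and clusters after seeing the values. Python 3.11.15, pandas 2.3.3, numpy 2.4.6, scipy 1.17.1 and matplotlib 3.10.9 were used.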

Additional observations from a re-analysis of the deposited data

Results flagged for a closer look

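The shade responses of whole hypocotyls and peels differed in 1917 of 28485 genes (6.73%) by the two-sided z test, a count that was 226 with the larger of both standard errors. Among genes called in opposite directions, 114 passed the same test, 62 with the whole hypocotyl fold above the peel fold and 52 with it below. With the larger standard error 101 of the 114 passed. These genes were chosen for opposite calls, which makes passing this test all but certain.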

How the results depend on the processing

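The 11511 calls (5381 higher, 6130 lower) became 5497 (2102 higher, 3395 lower) where a log2 fold of size 1 was also asked for, and 4417 (1744 higher, 2673 lower) where 1 FPKM was also added to both values. The difference between tissues counted 253 genes with the standard error from the authors' p, and 226 with the larger of both, against 1917. The counts with a size limit or the larger standard error are lower by construction, and for the count with the standard error from p the cause was not tested. The other 34 recomputed counts stayed within 1.5 times their main value, among them the corrected table, a q under 0.01 (8443 calls) and annotated genes only (10789). Of these, 6 come from 3 centrings, which hold the authors' q and only recount signs after a constant shift, so they say little about stability. The 4 named genes kept their direction in the corrected table and with 1 FPKM added (5.91, 5.44, -6.04 and -6.04). The centrings, the annotated-gene limits and the larger standard error were chosen after seeing the data.

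No paired analysis was possible because the tables hold 1 pooled value per group, and leaving out libraries was not run for the same reason. Alternatives for gene lists were not run, since the identifiers carry no names. Low genes had the largest standard errors, and their depth is unknown.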
